A study of Mus musculus with 4 samples.

Results

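The open regions described here lie inside very long genes of the mouse. Peaks of the 4 ATAC-seq libraries on chromosomes 1 to 19 were merged wherever they overlapped by 1 bp, and a merged region was kept when it lay wholly inside a protein-coding gene of 500 kb or longer in the mm10 RefSeq annotation, whatever its pattern of libraries. This gave 4226 of the 65969 open regions (6.41%). Their hosts were 216 of 20665 protein-coding genes (1.05%), which cover 180 Mb and have a median length of 735 kb. Another 28652 regions lay inside shorter genes and served for comparison. The choice used gene length and position, not the presence or strength of a peak in any group.

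All 4 libraries came from the PVH, the hypothalamic paraventricular nucleus, of mice aged 12 weeks with the genotype Otp fl/fl; Ai14, that is, with both copies of Otp flanked by loxP sites and a Cre-dependent red fluorescent reporter. The control group (AAV-GFP, 2 libraries) had received an adeno-associated virus for green fluorescent protein, and the other group (AAV-Cre, 2 libraries) one for Cre recombinase. The tissue was taken 4 weeks after injection, so Otp, a homeodomain transcription factor of the PVH lineage, was targeted in adult animals and only in infected cells. The sources used here do not give the promoter or serotype of the viruses, the share of infected cells or the number of animals behind a library. Differences between libraries may therefore be technical, and fewer cells of a type cannot be told apart from less open chromatin per cell. The series asked whether chromatin near targets of Otp is less accessible without it.

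ATAC-seq uses a transposase that cuts and tags DNA where nucleosomes leave it exposed, so a peak marks an accessible stretch such as a promoter or an enhancer. The longest mammalian genes owe their length to introns. Many of them encode adhesion proteins, receptors, channels and scaffolds of synapses, are transcribed mainly in neurons, and carry enhancers and alternative promoters within their introns. Their transcription takes hours, and several overlap common fragile sites.

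The peak lists held 57682 and 34100 peaks in AAV-GFP replicates 1 and 2, and 23384 and 26612 peaks in AAV-Cre replicates 1 and 2. Both control lists were thus longer than both AAV-Cre lists, and the read depth behind each list is unknown. A peak within 1 kb of an end of Otp was listed in AAV-GFP replicates 1 and 2 and in AAV-Cre replicate 2, which says nothing of the deletion itself. Of the markers checked at gene ends, the neuronal genes Snap25 and Syt1, the astrocyte genes Gfap and Slc1a2 and the PVH gene Pou3f2 had peaks in all 4 libraries. Peaks were found at 4, 4, 3 and 2 of 6 neuronal markers and at 5, 4, 2 and 3 of 7 PVH markers in AAV-GFP replicates 1 and 2 and AAV-Cre replicates 1 and 2, with none at Avp. In the same order there were 4, 3, 2 and 3 of 5 astrocyte markers, 2, 1, 0 and 1 of 5 oligodendrocyte markers and 3, 2, 0 and 1 of 4 precursor markers. No library had a peak at any of 5 microglial or 5 endothelial markers. The part of cell composition in the results below was not tested.

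Some of the open regions cover promoters of long-gene transcripts, many of which start inside the gene, and these are the places where RefSeq (GRCm38.p6, the assembly of mm10) gives a sequence. Promoter windows, from 250 bases before to 50 bases after a transcript start, were available for 169 of the 216 long genes. The 6 windows below are those with the strongest peaks lying on a region counted here, 4 with a peak in every library and 2 with peaks in both controls alone. They are shown so that the letters of promoters listed in all libraries and in the controls alone can be read side by side. The Lrmda window lies at the outer start of its gene, 0.208 kb in, and the other 5 belong to internal transcripts, with Pcdh9 2.15 kb and Magi2 7.66 kb from the outer start. Each runs 5′ to 3′ on the strand of its gene, and capitals mark a match to a searched motif.
Magi2 (chr5:19226796-19227095, plus strand, all 4 libraries): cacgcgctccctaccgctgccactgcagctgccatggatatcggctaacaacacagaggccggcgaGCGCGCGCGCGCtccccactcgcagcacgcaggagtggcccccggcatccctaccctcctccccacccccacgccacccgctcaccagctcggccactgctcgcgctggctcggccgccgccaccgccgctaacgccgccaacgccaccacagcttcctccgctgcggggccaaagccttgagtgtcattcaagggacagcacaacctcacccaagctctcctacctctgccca
Ank2 (chr3:127409009-127409308, minus strand, all 4 libraries): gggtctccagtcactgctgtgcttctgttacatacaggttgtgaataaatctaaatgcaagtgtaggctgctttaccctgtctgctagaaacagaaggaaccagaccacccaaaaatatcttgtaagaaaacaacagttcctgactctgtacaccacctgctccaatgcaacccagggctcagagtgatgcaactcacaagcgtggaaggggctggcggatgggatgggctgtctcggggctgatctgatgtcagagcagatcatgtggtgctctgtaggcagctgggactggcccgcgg
Pcdh9 (chr14:93890630-93890929, minus strand, all 4 libraries): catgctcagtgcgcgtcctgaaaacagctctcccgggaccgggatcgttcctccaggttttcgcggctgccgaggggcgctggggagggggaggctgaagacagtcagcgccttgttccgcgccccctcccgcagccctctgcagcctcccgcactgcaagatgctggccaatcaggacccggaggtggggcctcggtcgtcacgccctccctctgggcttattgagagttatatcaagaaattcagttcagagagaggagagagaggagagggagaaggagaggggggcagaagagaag
Schip1 (chr3:68572118-68572417, plus strand, all 4 libraries): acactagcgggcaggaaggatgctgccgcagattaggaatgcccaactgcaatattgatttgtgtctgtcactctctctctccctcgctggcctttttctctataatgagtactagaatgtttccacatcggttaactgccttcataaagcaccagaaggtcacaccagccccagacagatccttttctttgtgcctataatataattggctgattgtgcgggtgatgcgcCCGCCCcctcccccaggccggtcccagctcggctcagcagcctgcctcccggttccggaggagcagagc
Hdac9 (chr12:34528840-34529139, minus strand, both control libraries): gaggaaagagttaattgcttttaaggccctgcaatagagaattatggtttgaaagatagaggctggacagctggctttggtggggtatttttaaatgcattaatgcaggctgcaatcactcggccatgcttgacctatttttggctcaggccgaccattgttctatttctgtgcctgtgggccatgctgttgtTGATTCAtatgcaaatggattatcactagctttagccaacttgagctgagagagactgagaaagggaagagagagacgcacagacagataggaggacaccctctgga
Lrmda (chr14:22019462-22019761, plus strand, both control libraries): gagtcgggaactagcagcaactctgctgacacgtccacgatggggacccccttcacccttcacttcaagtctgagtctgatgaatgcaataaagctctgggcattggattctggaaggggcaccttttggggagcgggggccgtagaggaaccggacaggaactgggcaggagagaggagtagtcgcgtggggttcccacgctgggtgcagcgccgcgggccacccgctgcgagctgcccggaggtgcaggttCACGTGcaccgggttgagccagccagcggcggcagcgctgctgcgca

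The motifs searched on both strands were TAATTA (the core bound by homeodomain proteins such as Otp), TGANTCA (AP-1), the NRF1 motif, GGGCGG (the GC box), CACGTG (an E-box) and TATAAA (the TATA box). The capitals in Magi2, a synaptic scaffold, are overlapping matches to the NRF1 motif at positions 67 and 69. Schip1, a cytoskeletal adaptor, holds the GC box on its minus strand at position 232, Hdac9, a histone deacetylase, an AP-1 match at position 194, and Lrmda an E-box at position 254. Ank2, which anchors channels to the cytoskeleton, and Pcdh9, a protocadherin, hold none of the 6. Among all promoter windows TAATTA occurred in 4.48%, TGANTCA in 7.06%, the NRF1 motif in 8.83%, GGGCGG in 47.0%, CACGTG in 7.89% and TATAAA in 12.7%. Among the internal windows of long genes the shares were 6.67%, 5.93%, 5.19%, 28.9%, 2.96% and 8.89% in that order. A match describes letters only.

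The peaks on these windows differed in strength. Fold enrichment, the height of a peak over its local background as the authors' peak caller gave it, was 16.6, 12.1, 10.1 and 10.2 at Magi2 in AAV-GFP replicates 1 and 2 and AAV-Cre replicates 1 and 2. In the same order it was 11.3, 13.6, 10.4 and 9.70 at Ank2, 91.3 kb inside the gene. At Schip1 it was 8.90, 9.90, 9.27 and 9.06, 508 kb from the outermost start. The peaks listed in both controls alone were weaker, with folds of 7.03 and 7.15 at Hdac9, 388 kb inside, and 6.72 and 6.64 at Lrmda.

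Of 135 internal promoter windows in 82 long genes, 29 (21.5%) had a peak in all 4 libraries, 60 (44.4%) in none, 12 in both controls alone and 0 in both AAV-Cre libraries alone. A peak lay on 70 and 54 of them in the control libraries, and on 39 and 43 with AAV-Cre. Of 136 windows at the outer start of a long gene, 72 (52.9%) had a peak in all 4 libraries and 29 (21.3%) in none. In shorter genes 28.8% of 3764 internal windows and 43.1% of 16050 outer windows had a peak in all 4. Of these 3764 internal windows, 95 had peaks in both controls alone and 3 in both AAV-Cre libraries alone. Over all 20085 promoter windows the counts were 510 and 8, so windows listed in both AAV-Cre libraries alone were rare everywhere. The observed to expected ratio of CpG dinucleotides, high in CpG islands, had a median of 0.67 over the outer and 0.39 over the internal windows of long genes. Internal windows with peaks in all 4 libraries had a median ratio of 0.59, and those with none 0.27.

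Several genes held internal promoters with different patterns. In Nrxn3, a presynaptic adhesion receptor with alternative promoters, the window 1090 kb from the outer start had folds of 11.1, 9.87, 7.42 and 7.69, whereas the window at 231 kb had a peak in the controls alone, with folds of 4.18 and 4.32. Robo2, a receptor for the guidance cue Slit, had a window with peaks in all 4 libraries 1036 kb from its outer start (folds of 4.98, 6.15, 5.35 and 5.13) and another, at 355 kb, in the controls alone (5.59 and 4.23). In Dlg2, a postsynaptic scaffold, the window at 615 kb was listed in both controls only and the one at 1759 kb also in AAV-Cre replicate 2. Both the Asic2 window at 815 kb and the Lsamp window at 1549 kb had peaks in all 4 libraries. These examples were chosen after their values were seen.

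Open regions were sparser in long genes. They numbered 2.35 per 100 kb of gene, against 3.56 per 100 kb in shorter genes. The density was 3.60, 3.34, 3.64 and 3.50 per 100 kb in genes under 50 kb, of 50 to 100 kb, of 100 to 200 kb and of 200 to 500 kb. It was 2.69 in the 111 genes of 500 to 750 kb, 2.50 in the 50 of 750 to 1000 kb, 2.09 in the 41 of 1000 to 1500 kb and 1.71 in the 14 of 1500 kb or longer. The order along the long classes was the same in every library. From 500 to 750 kb up to 1500 kb or longer, the density went from 2.15 to 1.41 in AAV-GFP replicate 1 and from 1.02 to 0.683 in replicate 2. In AAV-Cre replicates 1 and 2 it went from 0.631 to 0.340 and from 0.733 to 0.343. Just inside the length limit, Edil3 (502 kb) held 4 regions, Dock1 (503 kb) 15, Samd12 (503 kb) 5 and Stpg2 (504 kb) 1. Just outside it, Dnm3 (496 kb) held 16, Lrrc7 (495 kb) 15, Cacna1e (494 kb) 19 and Ank3 (494 kb) 36.

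**Figure D1:**
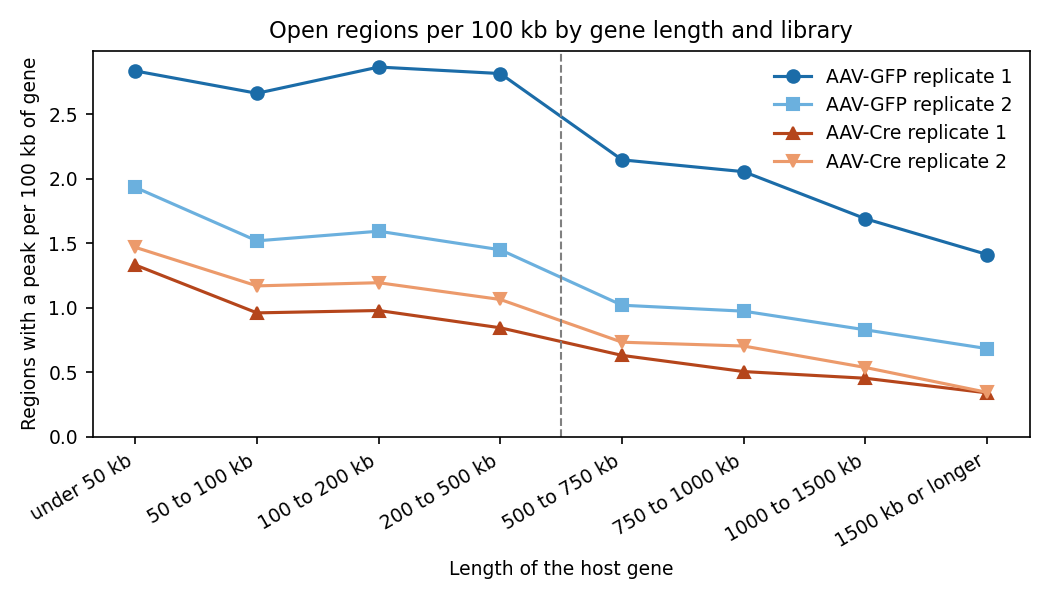
Regions with a peak per 100 kb of gene (y axis, linear) for 8 classes of gene length (x axis), one line per library, with the dashed line at 500 kb. Each library is lowest in the class of 1500 kb or longer, at 1.41 and 0.683 for AAV-GFP and at 0.340 and 0.343 for AAV-Cre.

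In AAV-GFP replicates 1 and 2, 3426 and 1641 regions inside long genes had a peak, and in AAV-Cre replicates 1 and 2, 925 and 1115. As a share of each library's regions these were 6.23%, 5.002%, 4.16% and 4.37%. Both control shares lay above both AAV-Cre shares. The control mean was 5.62% ± 0.867 (SD, n = 2) and the AAV-Cre mean 4.27% ± 0.148 (SD, n = 2), a difference of -1.35 percentage points (two-sided exact permutation test, p = 0.333). With 2 libraries a group, 0.333 is the smallest p that test can give. The order of these shares is that of the list lengths, and when each list was cut to its 23384 strongest peaks, the shares became 3.93%, 3.98%, 4.17% and 4.17%, and the difference turned to 0.217 percentage points (exact p = 0.333). Per 100 kb of long gene the libraries had 1.90, 0.911, 0.514 and 0.619 regions, a difference of -0.84 between the group means (exact p = 0.333).

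Peaks inside long genes were weaker than those inside shorter genes by rank. Their median rank from the strongest peak of the library, as a percentile, was 62.3, 63.8, 64.6 and 61.6 in AAV-GFP replicates 1 and 2 and AAV-Cre replicates 1 and 2, against 55.1, 58.3, 57.7 and 58.5 in shorter genes. The strongest 10% of a library's regions held 1.98%, 1.34%, 2.16% and 2.60% of long-gene peaks, against 5.68%, 5.45%, 6.43% and 5.84% of those in shorter genes. Median fold enrichment was close in both, at 5.13, 5.29, 5.18 and 5.49 in long genes and 5.13, 5.33, 5.37 and 5.35 in shorter ones. Regions were narrow, with a median of 224 bp, or 514 bp where all 4 libraries had a peak.

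Most regions inside long genes appeared in a single library. A peak in 1 library only was seen for 2539 (60.1%), in 2 for 884 (20.9%), in 3 for 412 (9.75%) and in 4 for 391 (9.25%, 95% Wilson interval 8.42 to 10.2). In shorter genes the shares were 53.2%, 19.4%, 11.3% and 16.1%. AAV-GFP replicate 1, the longest list, alone accounted for 1848 regions (43.7%), against 35.8% in shorter genes. AAV-GFP replicate 2 alone gave 287, AAV-Cre replicate 1 alone 178 and AAV-Cre replicate 2 alone 226. Long genes held 8.04% of all regions found in AAV-GFP replicate 1 alone but 2.73% of those found in all 4 libraries.

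Regions listed in both controls but in no AAV-Cre library are called control-specific, and those listed in both AAV-Cre libraries but in no control are called Cre-specific. In long genes 569 regions were control-specific, which is 13.5% (12.5 to 14.5) beside 11.5% of all regions on chromosomes 1 to 19. There were 49 Cre-specific regions, or 1.16% (0.878 to 1.53) beside 1.2% of all regions. The Cre-specific share was thus near the background. With lists of equal length the counts were 145 control-specific and 132 Cre-specific, nearly even. The control-specific count was 2443 without AAV-GFP replicate 2 and 868 without AAV-GFP replicate 1. The Cre-specific count was 281 without AAV-Cre replicate 1, 232 without AAV-Cre replicate 2 and 115 without AAV-GFP replicate 1. The shares over all regions were not counted for these other settings. These counts therefore do not set long genes apart from other regions. Among the mixed patterns, 215 regions were missing from AAV-Cre replicate 1 alone and 119 from AAV-Cre replicate 2 alone, 67 from AAV-GFP replicate 2 alone and 11 from AAV-GFP replicate 1 alone. Intervals cover counting error only, and regions are not replicates of a condition.

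To set regions of like strength side by side, the 1294 long-gene regions with a peak in both control libraries were sorted into 10 classes of control strength, the mean rank percentile of their peaks in both lists. In both AAV-Cre lists 569 of these control-shared regions had no peak, 44.0% (41.3 to 46.7), beside 27% of all control-shared regions. In shorter genes 3274 of 10582 were absent (30.9%), and 36.2% when their classes were weighted to those of the long genes. The difference at equal strength was 7.79 percentage points (95% interval 4.95 to 10.6). The share in long genes was higher in 9 of 10 classes. In the strongest class 0 of 48 long-gene regions were absent, with an upper bound of 7.41%, against 0.439% of 1140. In the second class the shares were 8.33% and 3.53%, in the fifth 34.0% and 24.7%, and in the weakest 73.6% and 68.0%.

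The excess was not particular to genes of 500 kb or longer. Weighted to the strength of long-gene regions, control-specific regions made up 32.7% of the control-shared ones in genes under 50 kb, 35.5% at 50 to 100 kb, 38.3% at 100 to 200 kb and 39.0% at 200 to 500 kb. The share was 41.8%, 44.6% and 44.6% in the next 3 classes and 50.4% in genes of 1500 kb or longer. In the last class the unweighted count was 69 of 134, or 51.5% (43.1 to 59.8). Regions outside genes reached 44.4% at the same strength. The values were thus higher in longer genes on both sides of the limit, with no step between the classes of 750 to 1000 kb and 1000 to 1500 kb, and about as high between genes as inside long ones.

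**Figure D2:**
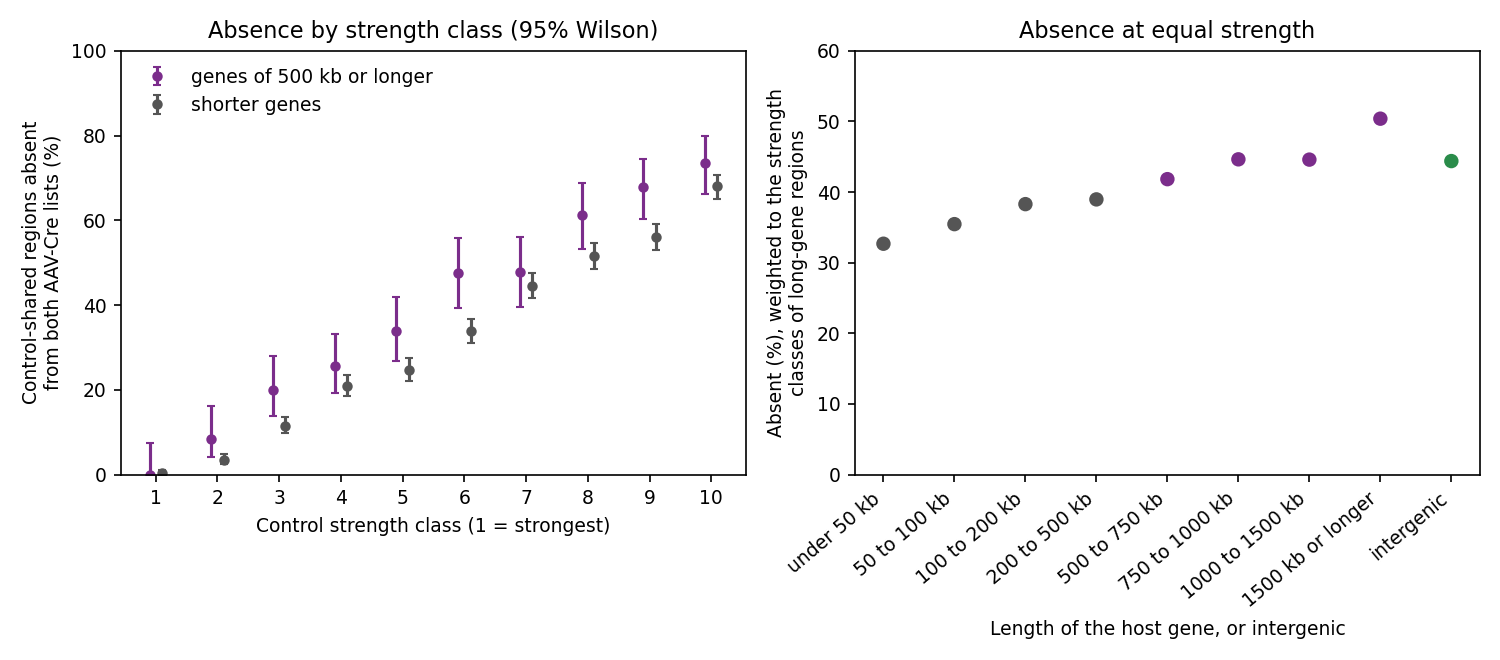
Left, the percentage of control-shared regions absent from both AAV-Cre lists (y axis) in 10 classes of control strength (x axis, 1 the strongest), for long and shorter genes with 95% Wilson intervals. Right, the percentage at the strength of long-gene regions by length class and for intergenic regions, from 32.7% under 50 kb to 50.4% at 1500 kb or longer and 44.4% between genes.

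The reverse comparison gave a smaller and uncertain difference. Of 518 long-gene regions with a peak in both AAV-Cre libraries, 49 had none in either control, 9.46% (7.23 to 12.3), beside 4.86% of all such regions. Shorter genes had 6.80%, and 8.15% at equal AAV-Cre strength. The difference of 1.31 percentage points had an interval of -1.33 to 3.94, and long genes were higher in 5 of 10 classes. With lists of equal length, however, both directions were of similar size. Absence from AAV-Cre was then 25.8% in long and 18.5% in shorter genes of equal strength, a difference of 7.26 (3.47 to 11.1), and absence from the controls 27.7% and 19.5%, a difference of 8.16 (4.00 to 12.3).

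Pairs of single libraries were also compared, within groups and between them. This measure takes the peaks of a single library and counts those absent from another. It differs from the shares above and does not divide their differences into parts. At equal strength, peaks of AAV-GFP replicate 1 were absent from AAV-Cre replicates 1 and 2 more often in long genes by 3.67 and 4.39 percentage points, and those of AAV-GFP replicate 2 by 5.53 and 5.47. Within the AAV-Cre group, peaks of replicate 1 were absent from replicate 2 more often by 3.95 points (0.594 to 7.30), and peaks of replicate 2 from replicate 1 by 5.50 (2.43 to 8.57). Within the controls the differences were 2.49 (0.772 to 4.20) from replicate 1 to 2 and -1.92 (-4.01 to 0.167) from replicate 2 to 1. In 3 of the 4 ordered pairs within a group, then, long-gene peaks were less often found again than equally strong peaks of shorter genes. From AAV-Cre to control the differences ran from 1.90 (-1.15 to 4.95) to 6.67 (3.63 to 9.70).

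**Figure D3:**
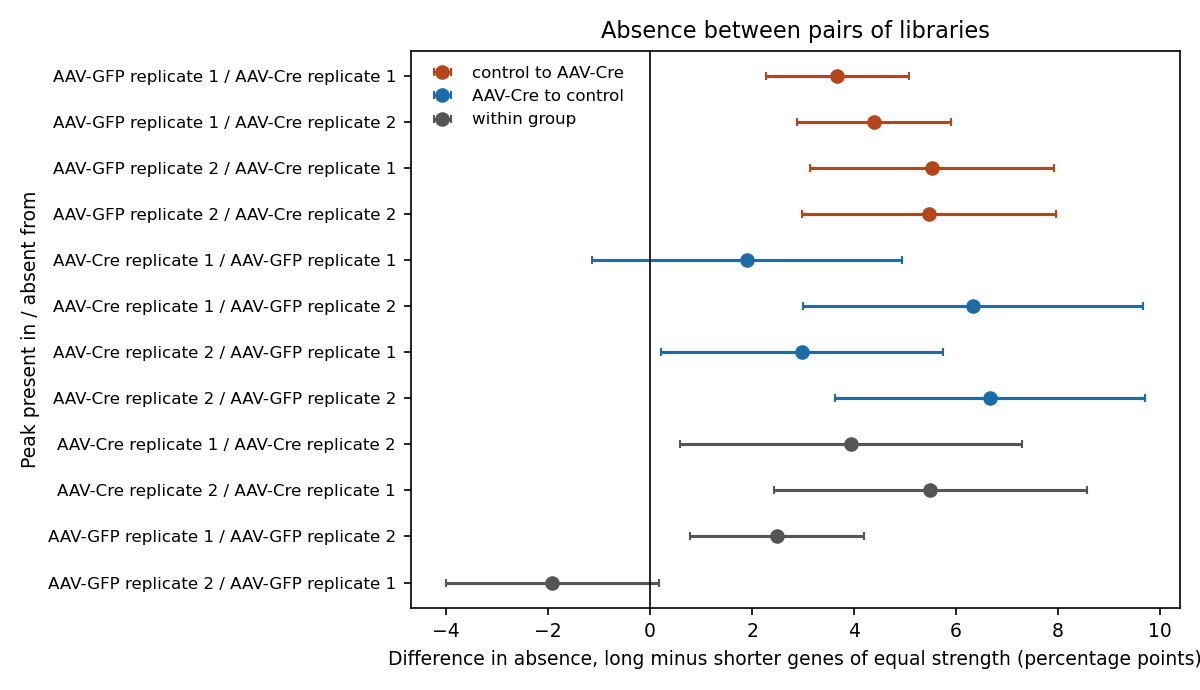
Difference, in percentage points, between long and shorter genes of equal strength in the share of one library's peaks absent from another library (x axis), for each of the 12 ordered pairs (y axis), with 95% intervals. Pairs within a group overlap the pairs between groups, from -1.92 to 5.50 within and from 1.90 to 6.67 between groups.

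Regions near the ends of long genes were denser and less often control-specific than those farther in. The 4226 regions formed 4288 pairs of region and host, since 39 regions lie in overlapping hosts. Their median distance from the nearer end of the host was 187 kb, and 3048 pairs (71.1%) lay over 100 kb from both ends. Within 1 kb of an end the density was 23.8 per 100 kb, at 1 to 10 kb 3.55, at 10 to 50 kb 2.46 and beyond 250 kb 1.96. Absence of control-shared regions from both AAV-Cre lists was 13.6% (7.03 to 24.5) within 1 kb of an end and 30.4% at 1 to 10 kb. It was 42.6%, 40.9% and 45.4% at 10 to 50, 50 to 100 and 100 to 250 kb, and 48.2% (43.5 to 52.8) farther in. These shares by distance were not adjusted for control strength, so position and strength are not separated here. Regions with peaks in all 4 libraries lay a median of 158 kb from an end, control-specific ones 200 kb and Cre-specific ones 241 kb.

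Within 1 kb, the dense ends were starts, not stops. For the 169 genes whose strand is known, the first 1 kb held 78 regions, 46.2 per 100 kb, and the last 1 kb held 6, or 3.55 per 100 kb. At 1 to 10 kb the densities were 4.21 from the start and 2.56 from the stop. Farther in, the stop side was denser at 10 to 50, 50 to 100 and 100 to 250 kb. It had 3.06, 3.18 and 2.69 per 100 kb, against 1.89, 2.27 and 2.28 from the start. Beyond 250 kb the values were 2.39 from the start and 2.23 from the stop. The ends were also read with every region within 1 kb on either side, including regions that straddle the end or lie outside the gene. The peaks of the libraries need not share a region in this count. The start then had a peak in all 4 libraries in 96 genes (56.8%), in none in 32, and in both controls alone in 7. The 7 were Ptprt, Lpp, Galntl6, Dock1, Sorcs3, Lrmda and Cdh12. No start was Cre-specific. Rbfox1, Magi2, Pde4d, Nfia, Cacna1c and Robo2 were among those whose outermost start had no peak. The stop had no peak in 160 genes and a peak in all 4 libraries in 1. Promoter windows are a narrower measure. Of the 136 at outer starts of long genes, 7 had peaks in both controls alone and 0 in both AAV-Cre libraries alone. These are not the 7 starts named above, since the windows of Galntl6 and Sorcs3 had no peak. In shorter genes the counts were 396 and 5 of 16050 such windows, so Cre-specific windows were rare there too. The starts of shorter genes were not counted with the margin of 1 kb.

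Each gene was also divided into 10 equal parts from start to stop. The density along them was 2.71, 2.27, 1.90, 2.32, 2.18, 2.27, 2.46, 2.37, 2.71 and 2.95 regions per 100 kb. It was lowest in the third part and highest in the last. Of the control-shared regions in the first part 28.1% (21.3 to 36.3) were control-specific, and 39.7% to 53.7% in each of the others. Control strength was not adjusted for in these shares either. The first part also had the highest share of regions in all 4 libraries, 14.4%.

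**Figure D4:**
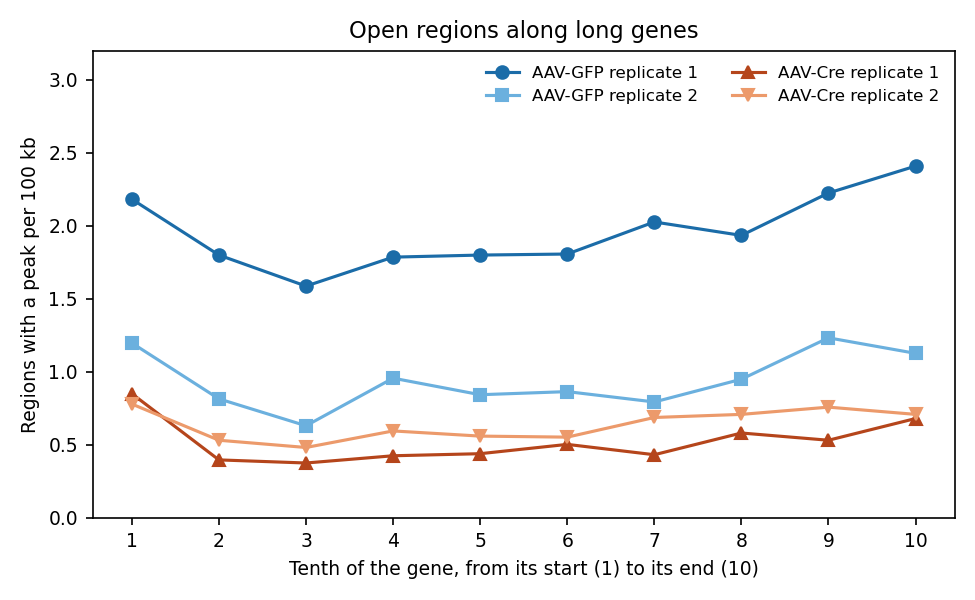
Regions with a peak per 100 kb (y axis, linear) in 10 equal parts of the 169 long genes of known strand, from start to stop (x axis), one line per library. All 4 lines are lowest at the third part, and AAV-GFP replicate 1 stays highest throughout.

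Single hosts held between 0 and 72 regions, with a median of 17 and a median density of 2.21 per 100 kb. The 10 hosts with the most regions together held 568. Across the 216 genes, Spearman's rank correlation was 0.32 between length and number of regions and -0.14 between length and density, given as a description. Both control counts were above both AAV-Cre counts in 138 of the 216 genes, and the reverse held in 0. Both control lists were longer than both AAV-Cre lists, and the matching share of single shorter genes was not counted. The regions inside all shorter genes also had both control counts above both AAV-Cre counts. They numbered 22749 and 13301 in AAV-GFP replicates 1 and 2, and 8456 and 10018 in AAV-Cre replicates 1 and 2. Whether the order is more frequent in long genes was not tested. The median gene had 14 and 6 peaks in AAV-GFP replicates 1 and 2, and 3 and 4 in AAV-Cre replicates 1 and 2, in the order of the list lengths.

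Asic2, a proton-gated sodium channel subunit on chromosome 11 (80880163 to 81968396), had the most regions, 72. The counts were 59 and 35 in AAV-GFP replicates 1 and 2 and 23 in each AAV-Cre replicate, and 10 regions were in all 4 libraries. Of its 27 control-shared regions 10 were control-specific. Camta1, a calmodulin-binding transcription activator, was the densest host, with 65 regions or 8.10 per 100 kb. Its counts were 49, 33, 19 and 24, in the same order of libraries, and 9 of 25 control-shared regions were control-specific. Nrxn3 held 63 regions, with counts of 56, 26, 9 and 9. Only 4 of these were in all 4 libraries, against 12 each in Camta1 and Ptprn2. Ptprn2, a phosphatase-like protein of dense-core vesicles, had 59 regions with counts of 47, 34, 16 and 26, and 6 of 27 control-shared regions were control-specific (22.2%).

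Tenm4, a teneurin that joins cells across the synapse, had 54 regions (41, 22, 16 and 11 by library), 7.30 per 100 kb. Arhgap26, a GTPase-activating protein, had 53 (40, 27, 14 and 19), and Ntm, the adhesion protein neurotrimin, had 51 (42, 28, 11 and 18). Dlg2 also had 51, with 41, 22, 6 and 15 by library, spread over 1973 kb. Auts2, a nuclear protein found with Polycomb complexes, had 50 regions (38, 26, 15 and 18), and 13 of its 23 control-shared regions were control-specific. Rbfox1, a splicing regulator of neurons, had 50 (36, 21, 13 and 13). Kirrel3, an adhesion protein, and Nav2, a guidance-related cytoskeletal protein, were also among the 5 densest, with 7.57 and 7.22 per 100 kb.

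Apart from Nrxn3 and Dlg2, the 10 longest hosts were not among the 10 with the most regions. Ptprd (2271 kb), a receptor phosphatase that organises synapses, held 32 regions, with 24, 8, 7 and 4 by library. Cntnap2 (2241 kb), which clusters potassium channels on axons, held 30 (27, 9, 7 and 8) and had a stretch of 375 kb without any. Lsamp (2197 kb), another adhesion protein of the IgLON family, held 47 (42, 20, 9 and 7), and 10 of 16 control-shared regions were control-specific. Lrp1b (2058 kb), a lipoprotein receptor, held 18, a density of 0.875 per 100 kb, with 16, 4, 2 and 1 by library. Macrod2 (1998 kb), an ADP-ribose hydrolase, held 23, and Fhit and Ctnna3, an enzyme gene at a fragile site and an alpha-catenin, held 19 each. Ctnna3 had a stretch of 520 kb without a region.

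In 5 long genes no region lay inside the gene, namely Cpq, Iqcm, Skint5, Sugct and Zfp804b. Sugct, a CoA transferase gene of 837 kb, and Zfp804b, a zinc finger gene of 575 kb, nevertheless had peaks within 1 kb of their starts in all 4 libraries. Iqcm and Skint5 had no peak at either end. The median longest stretch without a region, over all long genes, was 176 kb.

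**Figure D5:**
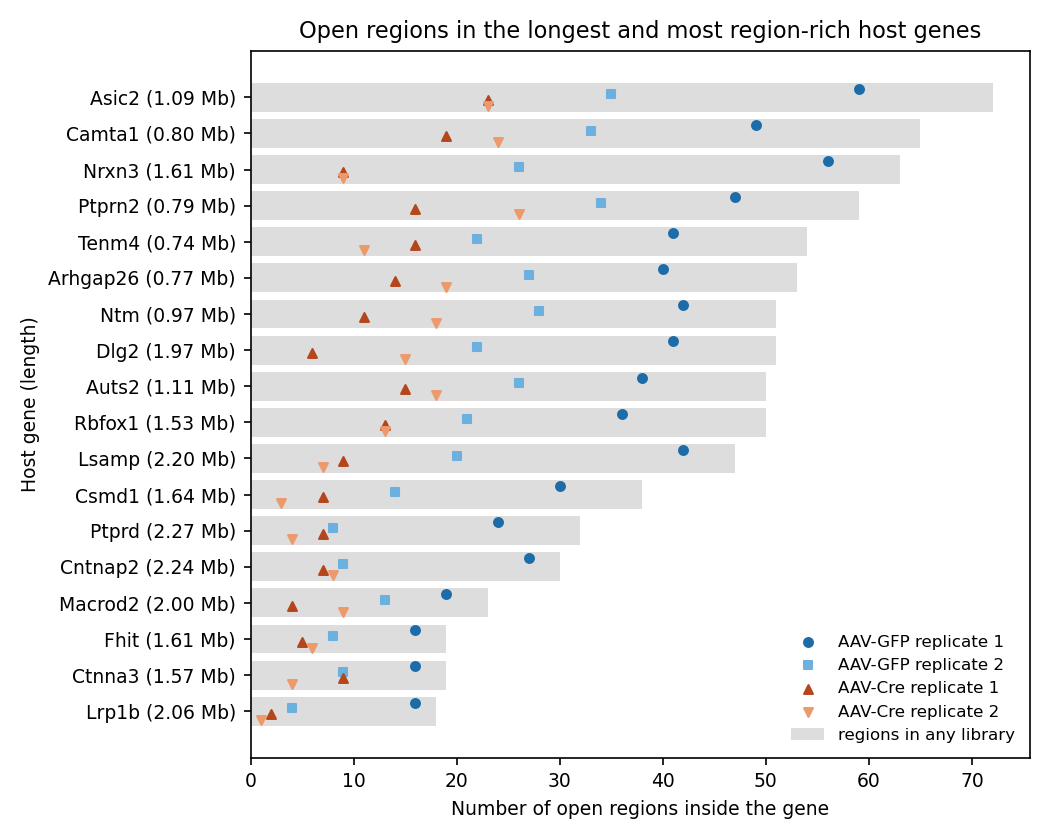
Number of open regions inside the longest and the most region-rich hosts (x axis, linear from 0), with grey bars for regions in any library and symbols for the count in each library. AAV-GFP replicate 1 is the highest symbol in every gene shown, and Asic2 reaches 72 regions while Lrp1b holds 18.

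In the 43 genes with 10 or more control-shared regions, the control-specific share of them ran from 18.2% to 80.0%, with a median of 43.8%. Syt1, the calcium sensor of synaptic vesicle release, was highest, with 8 of 10 regions and counts of 20, 14, 3 and 2 by library, although its start had a peak in all 4. Csmd1, a complement-related membrane protein, followed with 8 of 11 (72.7%; 30, 14, 7 and 3), then Cdh13, a cadherin without a cytoplasmic tail, with 10 of 14 (71.4%; 35, 24, 6 and 6). Nfia, a transcription factor of the nuclear factor I family, had 7 of 10 (70.0%; 26, 13, 6 and 9). Dpp6, an auxiliary subunit of potassium channels, had 10 of 16 (62.5%; 37, 17, 8 and 15).

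At the other end, Astn2, a membrane trafficking protein of neurons, had 2 of 11 (18.2%; 25, 12, 13 and 12), and Dscam, an adhesion protein, 2 of 11 (18.2%; 24, 19, 15 and 15). In Astn2 the counts of AAV-GFP replicate 2 and both AAV-Cre libraries were alike. Frmd4a, a scaffold of cell polarity, had 2 of 10 (20.0%; 29, 16, 9 and 9), and Trpm3, a cation channel, 3 of 13 (23.1%; 31, 16, 10 and 14). These ranks rest on 10 to 27 regions a gene.

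The strongest control-specific regions lay in introns or exons of 8 hosts, which the peak lists do not distinguish. In Ntm the region at chr9:29612128-29612547, 351 kb from the start, had folds of 9.53 and 9.90 in AAV-GFP replicates 1 and 2. In Cdh13 the region at chr8:119196597-119196947 had 9.37 and 9.51, and in Asic2 that at chr11:81096047-81096322 had 9.24 and 8.69. Adamtsl1, an extracellular matrix protein (chr4:85801903-85802082), had 11.7 and 10.05, and Lama2, a laminin chain (chr10:27001564-27001984), 9.63 and 9.002. Lingo2 (chr4:35885677-35886129) had 8.47 and 9.01, Magi2 (chr5:20303176-20303632) 8.48 and 10.3, and Dpp10 (chr1:124805226-124805553), an auxiliary subunit of potassium channels, 11.7 and 8.99. All 8 stayed control-specific with lists of equal length and with peaks of -log10 q of at least 5. Their choice by strength fixed this outcome, since both settings only remove weaker peaks and add none to the AAV-Cre lists.

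Among the strongest Cre-specific regions, folds in AAV-Cre replicates 1 and 2 were 7.54 and 6.63 in Arhgap24 (chr5:102408971-102409960), a Rac regulator. In Vps13b (chr15:35891247-35891716), a lipid transfer protein, they were 6.46 and 7.73, and in Adamtsl1 (chr4:86102936-86103459) 6.88 and 6.60. Arhgap26 had one with 6.08 and 8.02. These 4 regions stayed Cre-specific under both of those settings. That too was fixed by their choice by strength, since the settings add no peak to the control lists.

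Some regions over 100 kb from both ends of their host were strong in all 4 libraries. Those named here also lay over 1 kb from an end of any other protein-coding gene. Cntnap5b, a contactin-associated protein gene, held one 408 kb from its start (chr1:100180094-100180419) with folds of 48.1, 49.0, 48.6 and 44.9, within the strongest 0.0855% of each list. This region was not checked against a list of artefact-prone regions of the build. Mdga2, which regulates neuroligins, had a region at chr12:67059170-67059757 with folds of 20.0, 15.6, 17.8 and 17.9. Nrxn3 had one 384 kb from its start (chr12:89106239-89106701) with 17.4, 12.6, 10.7 and 12.9, and Pde4d, a cyclic AMP phosphodiesterase, one 787 kb from its start (chr13:109440891-109441268) with 12.5, 12.2, 12.2 and 11.8. Arhgap26 had one with 17.4, 17.5, 13.9 and 13.3. The last of this set, counted in the 3 overlapping gene models Gm37013, Gm38666 and Gm38667, had folds of 17.9, 16.8, 9.80 and 11.6. In Pde4d, in Arhgap26 and in the last region both control folds were above both AAV-Cre folds, by little in Pde4d, while in Cntnap5b, Mdga2 and Nrxn3 the groups overlapped.

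The hosts were also read by family, from 15 lists that hold 147 of the 216 long genes, beside 2.35 regions per 100 kb and 44.0% absent over all long genes. The lists were written with earlier results of these data known, and a gene may stand in more than one. The adhesion families differed in density. The 9 long members of the IgLON and related immunoglobulin adhesion list held 295 regions, 3.32 per 100 kb, with 43 of 95 control-shared regions (45.3%) absent from both AAV-Cre lists. Opcml, a member of that family, had 36 regions (31, 19, 6 and 8 by library). The 13 neurexins, neuroligins, teneurins, receptor phosphatases and other synaptic adhesion genes, the latrophilin Adgrl3 and Lrrtm4 among them, held 382 regions, 2.78 per 100 kb, with 54 of 107 (50.5%, 41.1 to 59.8) absent. In it Tenm3 had 6 of 7 control-specific. The 8 cadherins and catenins held 182, 1.97 per 100 kb, with 26 of 57 (45.6%) absent. The 6 contactins and contactin-associated proteins were sparse, with 81 regions, 1.19 per 100 kb, and 4 of 15 (26.7%, 10.9 to 52.0) absent.

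Receptors and channels followed. The 7 guidance genes, among them the netrin receptor Dcc and the Slit receptors Robo1 and Robo2, held 103 regions, 1.61 per 100 kb, with 11 of 23 (47.8%) absent. The 6 glutamate receptors held 87, 1.66 per 100 kb, with 12 of 31 (38.7%) absent, and Grid1, a delta receptor, accounted for 36 of them. The single long GABA receptor gene, Gabrg3, held 21, with 2 of 4 absent. The 11 channel genes held 255, 2.91 per 100 kb, with 29 of 75 (38.7%) absent. Within it Cacna1c, a calcium channel, had 5 of 31 regions in all 4 libraries and 2 of 8 absent, and Cacna2d3, an auxiliary subunit, 1 of 31 and 5 of 9.

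Inside the cell, the 12 scaffolds and regulators of synapse and vesicle held 293 regions, 2.83 per 100 kb, with 53 of 102 (52.0%, 42.4 to 61.4) absent, the highest share of the lists. The list of kinases, phosphodiesterases and GTPase regulators had 15 long genes, some of other kinds, such as Sgcd and Sgcz. They held 356 regions, 2.95 per 100 kb, with 43 of 114 (37.7%, 29.4 to 46.9) absent. Of this list's 59 regions with a peak in both AAV-Cre libraries 13 were Cre-specific, of which Pde4d held 3. Over all long genes the count was 49 of 518. The same counts were 3 of 38 for the scaffolds, 3 of 49 for the transcription regulators and 1 of 32 for the IgLON list. The 14 transcription and chromatin regulators held 325, 3.20 per 100 kb, with 51 of 109 (46.8%) absent, from 65 regions in Camta1 to 1 in Foxp2. The 5 long genes of the RNA-binding list held 139, 2.73 per 100 kb, with 20 of 42 (47.6%) absent. One of them, Dab1, is not an RNA-binding protein. It held 30 of these regions, with 4 of 10 absent.

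The remaining lists were sparse. The 8 growth factors and receptors, among them the neuregulins Nrg1 and Nrg3 and their receptor Erbb4, held 143, 1.92 per 100 kb, with 20 of 45 (44.4%) absent. Nrg1 had 19, 8, 5 and 7 peaks by library, and Erbb4 8, 6, 0 and 2. The list of enzymes and fragile-site genes had 32 long genes, some of other kinds, such as Lama2, Astn2 and Rarb. They held 459 regions, 1.53 per 100 kb, with 62 of 138 (44.9%) absent. The 5 long genes of the myelin and glial list, all of them also in another list, held 100, 1.39 per 100 kb, with 16 of 31 (51.6%) absent. The intervals of the lists overlap, and no list was tested against another.

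Members of the same lists under 500 kb gave a comparison within families. Their shares absent from both AAV-Cre lists were 29.7% for the IgLON list (11 of 37), 41.7% for the neurexin list (10 of 24), 32.5% for the cadherins (13 of 40), 3 of 10 for the contactins and 37.2% for the guidance genes (16 of 43). For receptors and channels they were 37.0% (17 of 46) in the glutamate, 37.9% (11 of 29) in the GABA and 38.0% (30 of 79) in the channel list. The scaffolds had 40.0% (12 of 30), the growth factors 31.0% (9 of 29), the RNA-binding proteins 53.3% (24 of 45) and the transcription regulators 38.0% (27 of 71). The kinase list had 39.1% (43 of 110), the enzyme list 43.5% (27 of 62) and the myelin list 18.2% (2 of 11). The long members were higher in 12 of the 15 lists and lower in the contactin, RNA-binding and kinase lists, without adjustment for strength.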

How the data were processed

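ATAC-seq peaks of 4 PVH libraries, 2 of AAV-GFP and 2 of AAV-Cre, were analysed. FastQC, Trim Galore, Bowtie2 and MACS2 with the build mm10 are named in the submitters' processing notes. Versions, peak thresholds and reads per library were not given in the sources used here, so depth is unknown. The deposited peak lists give, for each peak, a fold enrichment (a ratio over local background), a −log10 p-value, a −log10 q-value and a score that is the whole part of 10 times the −log10 q, and these are the authors' values. The group lists the authors also deposited served as an alternative.

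Regions were merged with 1 bp overlap in Python 3.11.15 with pandas 2.3.3 and numpy 2.4.6. Strength was the rank percentile by −log10 p within a list. Shares carry 95% Wilson intervals. Shorter genes were weighted to long genes over 10 strength classes. Library values were compared with a two-sided exact permutation test. Genes were named by length, by number and density of regions, by region strength, by absent share and by list. The members, lists and rules were chosen with earlier results of these data known. Strand came from RefSeq promoter entries, for 169 genes. The steps were tested on simulated data. Of 367 list entries, 363 matched an annotated gene. Replicate numbers are not said to mark shared animals. Some genes that these rules name are not reported here.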

Additional observations from a re-analysis of the deposited data

How the results depend on the processing

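The direction of the difference in absence from AAV-Cre at equal strength was the same under every alternative run, from 4.87 to 12.0 percentage points. It was 12.0 with strength from fold enrichment, 6.06 when gene ends formed their own classes and 4.87 to 6.93 without one library. The next settings were chosen after seeing the data: only regions over 10 kb from gene ends gave 5.99, and strength from the weaker library 8.13. The difference in absence from the controls was less stable. It was 8.16 with lists of equal length, 0.422 with classes split by gene end, -0.641 over 10 kb from gene ends, 1.51 by the weaker library and 0.605 to 5.55 without one library.

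Lists of equal length turned the difference in library share to 0.217 percentage points. They gave 145 control-specific and 132 Cre-specific regions, a density of 1.09 per 100 kb and 13.6% of regions in all 4 libraries. Peaks with −log10 q of at least 5 gave 357 and 21 at 1.14 per 100 kb, a length limit of 300 kb 1072 and 114 at 2.73, and a limit of 1000 kb 208 and 18 at 1.95. The authors' group lists gave 911 regions in the control list alone and 125 in the AAV-Cre list alone. Merging at 100 bp overlap gave 2.47 per 100 kb, and placing regions by midpoint 10.4% in all 4 libraries. Without one library, control-specific counts ran from 689 to 2443 (2443 without AAV-GFP replicate 2, 868 without AAV-GFP replicate 1), Cre-specific counts from 61 to 281, the share difference from -1.94 to -0.717, density from 1.34 to 2.26 and the share in all libraries from 11.5% to 16.8%. With the replicate number as a replicate block the share difference stayed -1.35 (exact p = 0.5, the smallest that block allows). Of 141 values for single hosts, 78 moved under equal length, q or midpoint and 63 did not. The shares of control-specific and Cre-specific regions over all regions were not counted at these settings. Their counts therefore do not set long genes apart from other regions. The causes were not tested. Unknown depth limits every absence: a missing peak is not closed chromatin.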

Other observations

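The X chromosome was outside the regions above. Its 11 protein-coding genes of 500 kb or longer held 36 open regions, 0.344 per 100 kb, against 433 regions in 955 shorter genes, 1.23 per 100 kb. By library the counts were 29 and 12 in AAV-GFP replicates 1 and 2, and 4 and 8 in AAV-Cre replicates 1 and 2. Of 6 regions with a peak in both controls, 2 had none in either AAV-Cre library. Dmd, the dystrophin gene of 2390 kb, held 6 regions, with 5, 2, 0 and 3 by library. Il1rapl1 (1375 kb), a synaptic adhesion protein, held 2, and Tenm1 (901 kb), a teneurin, held 1. Both are sparser than Tenm4 on chromosome 7, with 7.30 per 100 kb.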
